A study of Sus scrofa with 44 samples.

Results

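The back muscle of fetal pigs (longissimus dorsi) was compared between 50 and 40 days post coitus (E50 and E40). The libraries were chosen by the stage and tissue that the labels give, which took 12 of the 44 samples of the series: 3 input libraries and 3 libraries immunoprecipitated for N6-methyladenosine (m6A) at each stage. Both stages were handled alike per the labels, with total RNA extracted in Trizol, treated with DNaseI, depleted of ribosomal RNA and sequenced in pairs on a HiSeq instrument. Expression was deposited for each input library, whereas the immunoprecipitated libraries entered 1 peak list per stage. Of the 22427 genes in each expression file, 12839 averaged 1 TPM or more over the 6 input libraries, and these were tested (TPM is a level corrected for transcript length and library total). The main fit took its spread within stages from all 18 muscle input libraries of 6 stages, and not from the 6 compared input libraries alone. The labels name no breed, sex, litter or animal for the compared libraries, so the spread behind the p-values may be technical.

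Muscle of large mammals forms in waves. Primary myotubes arise first and serve as a scaffold on which more numerous secondary myotubes then form, while the fused cells assemble sarcomeres, the ordered arrays of actin and myosin that contract, and replace embryonic forms of the contractile proteins with fast or slow adult forms. The base mark m6A is placed on messenger RNA by a complex around METTL3 and METTL14, is removed by FTO and ALKBH5, and is bound by reader proteins of the YTH and IGF2BP families that alter the stability and translation of the message. It lies mostly in the sequence context DRACH (A, G or T, then A or G, then A, C, and A, C or T) and often near the stop codon.

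The libraries expressed the genes that define fetal muscle. Embryonic myosin heavy chain, MYH3, stood at 2940, 3360 and 2900 scaled TPM in E40 replicates 1, 2 and 3 and at 4250, 3550 and 5260 in E50 replicates 1, 2 and 3, where scaled TPM are the deposited TPM divided by a size factor for each library. Myosin and actin families hold near-identical members, and how the authors assigned shared reads among them is not given in the sources used here. A single gene without a symbol, ENSSSCG00000032395, took 50.5% to 72.4% of all TPM in the 6 libraries. In E40 replicate 2 and E50 replicate 3 a further gene, ENSSSCG00000032599, took 17.3% and 14.4%, which left 17.2% and 13.2% of the TPM for all other genes, against 34.4% to 48.7% in the other 4 libraries. Both of those libraries are called the crowded libraries here, and the number of genes called is also given without them. Calls by expression level and by peak class are given for the main fit only. The share of the remaining TPM sets the apparent level of every gene, so libraries were scaled by the median ratio to a common reference, with size factors of 0.301 to 1.54, and the median log2 difference of all genes was then 0.01. In the TPM as deposited it was -0.37, and rescaled on all genes but those abundant ones it was -0.17. The number of genes at 1 TPM or more ran from 8691 to 13393 per library. Rank correlations of expression overlapped within stages (Spearman 0.868 to 0.909) and between stages (0.858 to 0.899).

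Called rises at E50 included the contractile proteins ACTA1 and TNNI2, creatine kinase CKM and carbonic anhydrase CA3. Called falls were mostly at low levels and included SLIT1, an axon repellent, and EYA2, a transcription coactivator. Of the 12839 genes tested, 207 were called at a limma adjusted p under 0.05 (1.61%), with 132 higher at E50 (1.03%) and 75 lower (0.584%). Unadjusted p fell under 0.05 for 1805 genes. None of the 207 had overlapping stages, and over all tested genes 8.5% had every E50 library above every E40 library and 6.6% below. Separate stages were also a condition for naming a called gene, so separation adds no support to the calls named below. Higher and lower calls differed in level without being separated by it. Of the 16 called genes with a mean over 100 scaled TPM 15 were higher. At 20 to 100 scaled TPM 27 were higher and 8 lower, and at 5 to 20 the counts were 53 and 16. Of the 87 under 5 scaled TPM 37 were higher and 50 lower. The median size of the change was 0.8 on the log2 scale of scaled TPM + 1, a scale that understates the change of low genes.

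**Figure D1:**
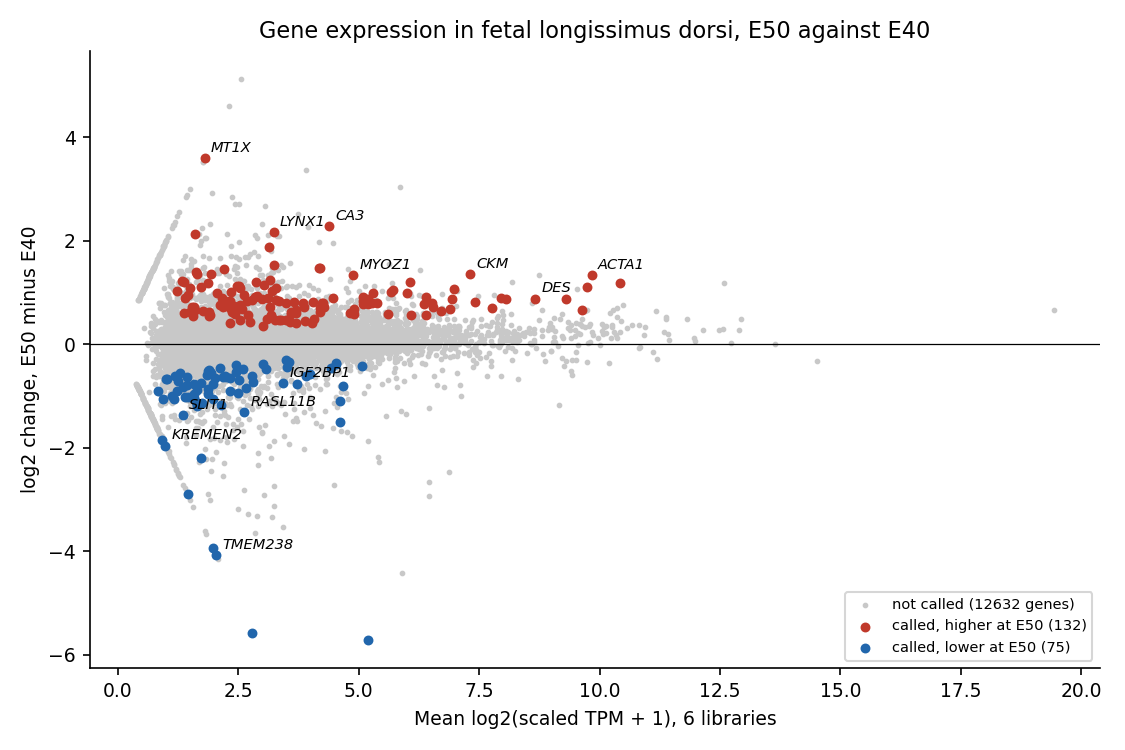
Change of each of the 12839 tested genes (E50 minus E40, log2 of scaled TPM + 1, vertical axis) against its mean level over 6 libraries (horizontal axis), with called genes in colour. The 132 genes called higher extend to the most abundant contractile genes, while most of the 75 called lower lie at the left, at low levels.

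The number called depended on individual libraries. Without both crowded libraries 44 genes were called (0.343%), 24 higher (0.187%) and 20 lower (0.156%), and 35 of the 207 were among them. The share of rises moved with the scaling, from 63.8% of calls to 38.8% (38 higher and 60 lower) when TPM were rescaled without the abundant genes. With only the 6 libraries in the fit, 14 genes were called (0.109%), 5 higher (0.0389%) and 9 lower (0.0701%), and of the called genes named here LRRC39, FGL2 and TMEM238 were among them. With weights estimated for each library 464 were called (3.61%), 300 higher (2.34%) and 164 lower (1.28%). In the TPM as deposited only TMEM238 was called (0.00779%), with 365 genes at an unadjusted p under 0.05. E50 replicate 2 lay nearest to E40, being the lowest of the E50 libraries for 99 of the 132 higher genes, and leaving it out raised the count to 403. Leaving out any other single library gave 56 (E50 replicate 1) to 108 (E40 replicate 2) calls. None of the 207 changed direction in these fits except 5 in the TPM as deposited, and 45 were called in each of the 6 fits that left out 1 library.

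Called genes with a peak on 1 of the lists alone are shown first by their sequence, taken from genes with a symbol that averaged 1 TPM or more in both stages. The first 6 are those with the largest called change among genes with a peak at E50 and not at E40, all of them rises, and WNT5A and EFNA5 are the called genes with a peak at E40 and not at E50. Calls in the opposite direction to these also occurred: ST6GAL2, TIMP3 (-0.36, limma adjusted p = 0.0374) and PDGFC (-0.39, limma adjusted p = 0.039), the last pair named after their values were seen, were called lower with a peak at E50 only. Neither TIMP3 nor PDGFC was called without both crowded libraries (0.215 for each), and each was called without E50 replicate 2 and in no other fit that left out 1 library. SLIT3 (-0.83, limma adjusted p = 0.0412), likewise named after its values were seen, had a peak at E40 only but averaged under 1 TPM at E50, and was called without E40 replicate 3 and in no other such fit. Each line gives 29 bases of the RefSeq genome (Sscrofa11.1), read 5′ to 3′ on the transcript's strand, around a DRACH in the gene's peak with the highest fold enrichment. Capitals mark the DRACH.
LYNX1: tcccgcctccgcAGACTgtccagcacaaa
CKM: tagagtcccgtaTAACAtgtggatgggtc
FGL2: acattacaaccaTGACAtgaagtatttca
LRRC39: acttacccaggcAAACTctcggtgttgtc
POPDC2: ccaggtcgaagcAGACAcagaagatgcca
CCDC69: agaacacggcagGGACCtctggtcctttt
WNT5A: gccccactcccaGGACCcacttatttata
EFNA5: aagggtatccgcAGACTcccggggccaca
The 5 capitals are not the same in all genes. GGACC occurs both in a raised gene (CCDC69) and in a lowered one (WNT5A), and so does AGACT (LYNX1 and EFNA5). A match describes the letters in the window and does not mark the methylated base.

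The E50 peak of LYNX1 spanned chr4:1451918-1452038 on the plus strand at a RefSeq locus named LOC110260197, near the stop codon (within 200 bases), with a fold enrichment of 8.38 in the authors' list. FGL2 had its peak in coding sequence at chr9:102872302-102872481 (plus strand, 11.9-fold). POPDC2 had its peak in the 3′ UTR at chr13:140620389-140620598 (plus strand, 8.38-fold), and CCDC69 near the stop codon at chr16:71817612-71817762 (plus strand, 3.59-fold). The peaks assigned to CKM at chr6:51700451-51700511 (minus strand, 12.4-fold) and to LRRC39 at chr4:117963558-117963707 (plus strand, 4.55-fold) lay outside the coding genes of RefSeq. RefSeq places CKM itself at chr6:51704021-51716935 and LRRC39 at chr4:117939604-117963451. In the E40 list, the peak of WNT5A lay near the stop codon at chr13:37349025-37349115 (minus strand, 5.86-fold) and that of EFNA5 in the 5′ UTR at chr2:112816224-112816313 (minus strand, 3.53-fold). Peaks of WNT5A and EFNA5 were listed at E33 and E40 and at no later stage, whereas those of CCDC69, FGL2 and LYNX1 were listed from E50 to E95 and at no earlier stage. LRRC39 had a peak at E50 and E95 and none at E60 or E70, and POPDC2 had one at E50, E70 and E95 and none at E60. CKM, absent from the E40 list, was on the lists of E33 and of each stage from E50 on. These fold enrichments are the authors' and describe peaks within 1 list.

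LRRC39, a leucine-rich repeat protein of the sarcomere's M-band, stood at 6.03, 5.1 and 5.88 scaled TPM at E40 and at 13.9, 12.4 and 13.3 at E50. It rose by 1.09 on the log2 scale (SE 0.12, limma adjusted p = 0.000653), with a gap between stages several times the spread within them. CCDC69, a coiled-coil protein, stood at 2.7, 3.18 and 3.07 at E40 and 7.58, 5.97 and 9.08 at E50, a log2 difference of 1.09 (SE 0.13, limma adjusted p = 0.000878). Both calls held when any single library was left out and without both crowded libraries (limma adjusted p = 0.0131 and 0.0104), while with only the 6 libraries in the fit LRRC39 was called (0.0476) and CCDC69 was not (0.136). POPDC2, a cAMP-binding membrane protein of striated muscle, stood near the detection limit at E40, at 0.964, 0.552 and 1.38, and at 3.87, 2.53 and 3.06 at E50 (limma adjusted p = 0.0166). FGL2, a fibrinogen-like protein, stood at 5.02, 4.05 and 5.43 against 13.5, 11.9 and 13 (log2 change 1.25, SE 0.24, limma adjusted p = 0.0194). The stages of both genes were separate, yet neither call stood without both crowded libraries (limma adjusted p = 0.154 for POPDC2 and 0.189 for FGL2), and with only the 6 libraries FGL2 was called (0.0495) and POPDC2 was not (0.251). The call of POPDC2 ended without E40 replicate 1, E40 replicate 2, E50 replicate 1 or E50 replicate 3, with limma adjusted p from 0.0508 to 0.08, and that of FGL2 without the same libraries, from 0.057 to 0.0808.

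Genes on the list of fast fibre contractile proteins were higher at E50. Whether each member, such as skeletal actin, is specific to fast fibres was not tested. Of 8 tested members of the list, 4 were called higher (ACTA1, TNNI2, TNNT3 and MYL1) and none lower, where 1.03% of all genes were called higher. All 8 had a positive change with a median of 0.74, beside 0.01 for all genes. As deposited the median was 0.26, beside -0.37 for all genes, and the sign of ATP2A1 turned (-0.18). Skeletal actin, ACTA1, the thin-filament protein of the sarcomere, stood at 579, 574 and 561 scaled TPM at E40 and at 1550, 1150 and 1720 at E50. The E40 libraries were nearly equal, and the lowest E50 library, replicate 2, was still about double them, for a log2 difference of 1.34 (SE 0.25, limma adjusted p = 0.0166). TNNI2, the inhibitory subunit of fast troponin, stood at 980, 938 and 829 at E40 and 2150, 1620 and 2570 at E50, a log2 difference of 1.18 (SE 0.21, limma adjusted p = 0.0141). TNNT3, the fast troponin subunit that binds tropomyosin, stood at 478, 477 and 441 against 930, 706 and 951, a log2 difference of 0.88 (SE 0.16, limma adjusted p = 0.0166). The essential light chain MYL1 showed the smallest of the 4 rises, at 195, 130 and 189 against 274, 298 and 258 (log2 change 0.71, SE 0.15, limma adjusted p = 0.0323). In a bulk sample more muscle fibres and more of these transcripts per fibre cannot be told apart.

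Levels of the genes on the fast fibre list varied by gene at the other stages. ATP2A1, TPM1 and CASQ1 averaged less at E40 (17.3, 79.5 and 9.04) than at E33 (23.9, 110 and 10.1), unlike ACTA1 and TNNI2. ACTA1 averaged 396 scaled TPM at E33, averaged 572 and 1470 in the stages compared, and stood at 2340 by E60 and 6340 by E95. For TNNI2 the averages were 175 (E33), 916 (E40), 2110 (E50) and 6920 (E95). The summed level of all 11 matched fast genes, untested ones included, was 2790 to 3010 at E40 and 4790 to 6920 at E50. The calls rested on few libraries: without both crowded libraries none of the 8 was called, while the median change was 0.60 and the limma adjusted p of ACTA1, TNNI2, TNNT3 and MYL1 was 0.166, 0.138, 0.143 and 0.124. ACTA1 was called when E50 replicate 2 was left out and in no other such fit (limma adjusted p from 0.051 to 0.0811). TNNI2 was lost without E40 replicate 3, E50 replicate 1 or E50 replicate 3 (0.0629 to 0.0722). TNNT3 was lost without E40 replicate 1, E40 replicate 3, E50 replicate 1 or E50 replicate 3 (0.0501 to 0.0811), and MYL1 without E40 replicate 2 or any E50 library (0.0532 to 0.1).

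Among slow and developmental sarcomere proteins MYBPC1 alone passed the test. Of 9 slow fibre genes 1 was called, MYBPC1, where 1.61% of all genes were called. All 9 had positive changes with a median of 0.51, which was 0.02 in the TPM as deposited. Slow myosin-binding protein C, MYBPC1, stood at 95.2, 78.5 and 95.2 scaled TPM at E40 and 160, 152 and 181 at E50, a log2 difference of 0.87 (SE 0.13, limma adjusted p = 0.00496). Its stages did not overlap. Its call held when any single library was left out but not without both crowded libraries (limma adjusted p = 0.0731). The slow light chains were further apart in the mean but more variable. MYL3 stood at 191, 201 and 185 against 450, 317 and 605 (log2 change 1.20, SE 0.34, limma adjusted p = 0.106), and MYL2 at 168, 127 and 197 against 323, 272 and 347 (log2 change 0.95, SE 0.24, limma adjusted p = 0.0625). None of 7 embryonic and cardiac forms passed the test, with a median of 0.49 that was 0.00 as deposited. Among them MYH6 had a log2 difference of 0.94 (limma adjusted p = 0.0637) and MYL4 one of 0.56 (limma adjusted p = 0.486). Perinatal myosin MYH8 stood at 1030, 1150 and 912 against 1520, 1390 and 2210 (limma adjusted p = 0.0943, or 0.0495 without E50 replicate 2), while the log2 difference of MYH3 was 0.49 (limma adjusted p = 0.232).

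The list of Z-disc and M-band scaffold proteins was read beside the 1.61% called over all genes. Of 26 tested members 6 were called higher and none lower. All E50 libraries lay above all E40 libraries for 16 members, and this held for 8.5% of all genes. The median change was 0.44, or -0.04 as deposited, where the median of all genes was -0.37. MYOZ1, a calcineurin-binding protein of the fast fibre Z-disc, stood at 18.2, 21.2 and 14.3 scaled TPM at E40 and 46.7, 36.3 and 56.6 at E50 (log2 change 1.33, SE 0.25, limma adjusted p = 0.0166). TCAP, which anchors titin at the Z-disc, stood at 87.7, 72.1 and 101 against 215, 180 and 151 (log2 change 1.06, SE 0.25, limma adjusted p = 0.0494). Both were separate between stages, as the rule for naming called genes required, and TCAP lay just inside the threshold. DES, the intermediate filament that links myofibrils, stood at 303, 317 and 273 against 582, 432 and 652 (log2 change 0.88, SE 0.19, limma adjusted p = 0.0379). The other called members were MYOZ3 (0.95), NRAP, a scaffold of nascent myofibrils (0.84), and the M-band protein MYOM2 (0.59). NEB, the nebulin ruler of the thin filament, had a change of 0.32 that did not pass (limma adjusted p = 0.275) and a sign that turned in the TPM as deposited (-0.17).

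Leaving out libraries ended most scaffold calls. None of the 6 was called without both crowded libraries, where the list's median was 0.36. NRAP was lost without E50 replicate 1 alone (limma adjusted p = 0.0587). MYOZ1 was lost without E40 replicate 1, E40 replicate 3, E50 replicate 1 or E50 replicate 3 (0.0508 to 0.0811), and MYOZ3 without E40 replicate 2, E40 replicate 3, E50 replicate 1 or E50 replicate 3 (0.13 to 0.174). DES and MYOM2 were called when E50 replicate 2 was left out and in no other such fit (limma adjusted p from 0.0755 to 0.158 for DES and 0.0657 to 0.15 for MYOM2). TCAP was called in none of the 6 such fits (limma adjusted p from 0.0656 to 0.187).

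Excitation and calcium handling included 4 called rises and no called fall among 16 tested genes, where 1.03% of all genes were called higher. The median change was 0.40, or -0.06 as deposited. SCN4A, the sodium channel that carries the muscle action potential, stood at 2.73, 3.02 and 2.54 scaled TPM at E40 and 8.64, 5.45 and 7.76 at E50, a log2 difference of 1.12 (SE 0.17, limma adjusted p = 0.00485). Its lowest E50 library was above its highest E40 library by more than the E40 range but by less than the E50 range. Its call held when any single library was left out. SYPL2, a triad membrane protein, stood at 15.9, 11.5 and 15.2 against 27.5, 22.9 and 22 (log2 change 0.73, SE 0.14, limma adjusted p = 0.0193). SLN, sarcolipin, an inhibitor of the calcium pump, stood at 22.5, 21.7 and 23.4 against 39.5, 37.4 and 33.5 (log2 change 0.68, SE 0.15, limma adjusted p = 0.0412). JPH1, which joins the surface membrane to the calcium store, had the smallest called change, 0.45 (SE 0.10, limma adjusted p = 0.04), and its sign turned as deposited (-0.01). The voltage sensor CACNA1S stood at 14.3, 10.8 and 12.2 against 14.6, 11.6 and 13.3, so its stages overlapped (log2 change 0.08, limma adjusted p = 0.86). Without both crowded libraries the limma adjusted p was 0.0586 for SCN4A, 0.108 for SYPL2, 0.185 for SLN and 0.264 for JPH1. Leaving out single libraries ended the call of SYPL2 (without E40 replicate 2, 0.0669, or E50 replicate 1, 0.0954), of JPH1 (without E40 replicate 1, E40 replicate 2, E50 replicate 1 or E50 replicate 3, 0.0729 to 0.145) and of SLN in each of the 6 fits (0.0613 to 0.151).

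Energy metabolism of the fibre was led by creatine kinase. Of 26 tested genes 3 were called higher (CKM, PYGM and CPT1B) and none lower, where 1.03% of all genes were called higher. The median was 0.27, or -0.06 as deposited, and none of the 26 was called without both crowded libraries. CKM, which regenerates ATP from phosphocreatine, stood at 108, 93.5 and 92.6 scaled TPM at E40 and 274, 206 and 287 at E50, a log2 difference of 1.36 (SE 0.20, limma adjusted p = 0.00394). The stages were far apart relative to the spread, and the call held when any single library was left out, with limma adjusted p up to 0.0269, while without both crowded libraries it was 0.0678. CKM averaged 6.5 at E33, 369 at E60 and 1080 at E95. PYGM, which releases glucose from muscle glycogen, stood at 27.3, 23.7 and 24.5 against 51.2, 35.4 and 46.1 (log2 change 0.78, SE 0.13, limma adjusted p = 0.0095), and its call ended without E50 replicate 1 (0.0545). CPT1B, the carnitine transferase that admits fatty acids to mitochondria, stood at 9.01, 10.2 and 10.5 against 17.4, 15.5 and 21 (log2 change 0.79, SE 0.19, limma adjusted p = 0.0499). CPT1B was called without E50 replicate 2 and in no other such fit (0.104 to 0.196). The brain form CKB overlapped between stages, at 134, 141 and 115 against 173, 109 and 169 (limma adjusted p = 0.854).

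**Figure D2:**
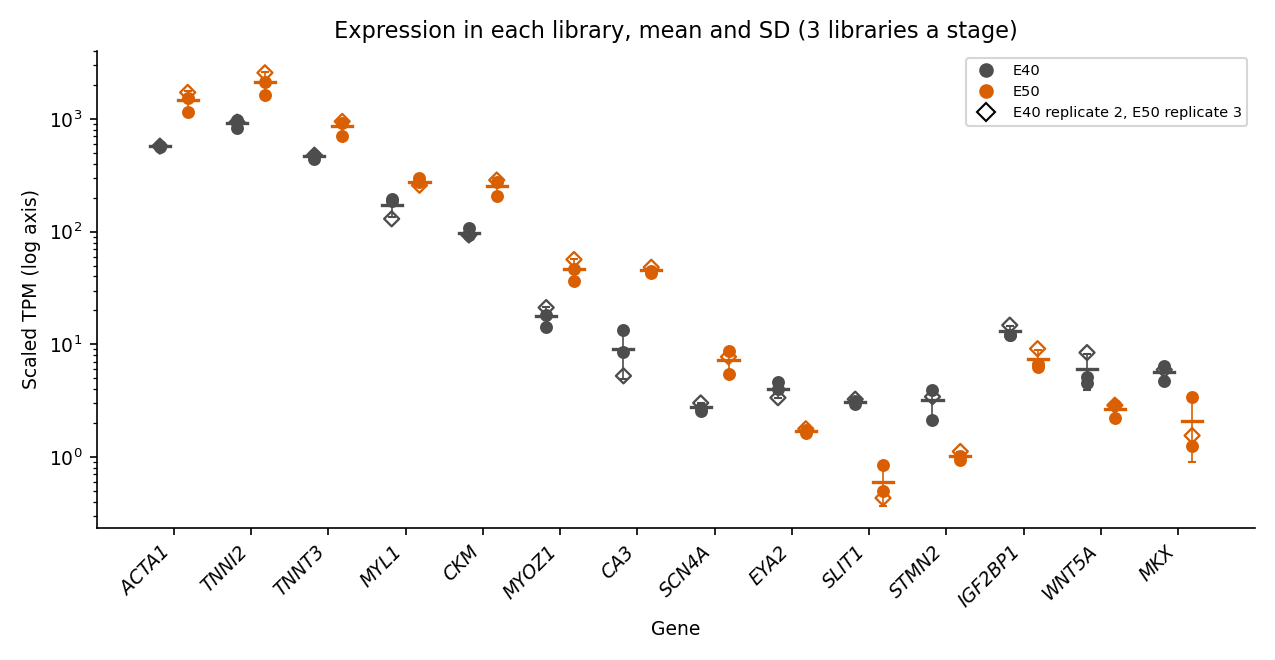
Scaled TPM of 14 called genes in each of the 3 libraries per stage (log axis), with the mean and SD as bars and the crowded libraries as open diamonds. For each gene shown the E40 and E50 points are separate, as the rule for naming called genes required. ACTA1 stood at 561 to 579 against 1150 to 1720 and SLIT1 at 2.93 to 3.26 against 0.433 to 0.855.

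Outside these lists, CA3 had the largest log2 rise among called genes above 0.1 TPM in all 6 libraries. CA3, a carbonic anhydrase of muscle, stood at 13.4, 5.25 and 8.51 scaled TPM at E40 and at 42.9, 44.5 and 48.3 at E50. The E50 libraries were close together, each more than 3 times the highest E40 library, and the log2 change was 2.28 (SE 0.24, limma adjusted p = 0.000514). The call held when any single library was left out and without both crowded libraries (limma adjusted p = 0.00579), but not with only the 6 libraries in the fit (0.11). CA3 averaged 0.444 at E33 and 72.9 at E60.

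LYNX1, a membrane-anchored modulator of nicotinic acetylcholine receptors, stood at 3.53, 2.84 and 3.99 scaled TPM at E40 and 25.5, 13.3 and 20 at E50. The separation was wide but uneven, with a log2 difference of 2.17 (SE 0.39, limma adjusted p = 0.0152) that was not called without E40 replicate 2 (0.0576), E50 replicate 1 (0.0748), E50 replicate 3 (0.0637) or both crowded libraries (0.154). LYNX1 did not climb steadily over development: its averages were 8.01 (E33), 3.45 (E40), 19.6 (E50) and 8.59 (E95). UCP2, a mitochondrial carrier, stood at 3.64, 6.63 and 3.89 against 19, 15.4 and 12 (log2 change 1.54, SE 0.32, limma adjusted p = 0.0323). The call of UCP2 ended without E40 replicate 1, E40 replicate 3, E50 replicate 1 or E50 replicate 3, with limma adjusted p from 0.0633 to 0.13. Further large rises were TMEM158 (1.48), TMEM203 (1.47) and the inositol trisphosphate kinase ITPKA (1.35), and none of these 3 was called without both crowded libraries (limma adjusted p from 0.0703 to 0.239). Leaving out single libraries ended the call of TMEM203 without E50 replicate 1 (0.0728) or E50 replicate 3 (0.103), of TMEM158 without E40 replicate 1, E40 replicate 3, E50 replicate 1 or E50 replicate 3 (0.0652 to 0.105), and of ITPKA in each fit but that without E50 replicate 2 (0.0593 to 0.13).

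Of 36 tested regulators of muscle identity and fusion none was called higher and 1 was called lower, EYA2, where 1.61% of all genes were called, with a median of 0.09, beside 0.01 for all genes, and -0.33 as deposited. EYA2, a coactivator of the sine oculis homeodomain factors, stood at 4.62, 3.36 and 4 scaled TPM at E40 and 1.63, 1.74 and 1.78 at E50. The E50 libraries were nearly equal and below each E40 library, and EYA2 fell by 0.87 on the log2 scale (SE 0.12, limma adjusted p = 0.00265). Its call held when any single library was left out and without both crowded libraries (limma adjusted p = 0.00875), but not with only the 6 libraries in the fit (0.15). MYOG, the factor that drives terminal differentiation, overlapped between stages at 104, 104 and 98.4 against 110, 91.3 and 97.5 (log2 change -0.04, limma adjusted p = 0.946). MYOD1 stood at 89.4, 74.5 and 89.9 against 116, 93.8 and 111 (log2 change 0.33, limma adjusted p = 0.444), and PAX7, the factor of muscle progenitors, at 19, 19.8 and 16.4 against 24.2, 22.6 and 26.7 (log2 change 0.39, limma adjusted p = 0.142). Neither passed the test although their libraries were separate, and both signs turned as deposited (-0.16 and -0.07).

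Readers of the IGF2BP family carried the called falls among the m6A machinery. Of 21 tested writers, erasers and readers 2 were called, both lower, where 0.584% of all genes were called lower. The median was -0.04, or -0.48 as deposited. IGF2BP1, an RNA-binding protein of fetal tissues, stood at 12, 14.8 and 12.2 scaled TPM at E40 and 6.29, 6.67 and 9.15 at E50, so that it fell by 0.75 on the log2 scale (SE 0.15, limma adjusted p = 0.0222). IGF2BP3 stood at 12.6, 11.5 and 12.6 against 8.26, 10.1 and 8.11 and fell by 0.44 (SE 0.10, limma adjusted p = 0.0481). Both pairs of ranges were separate, that of IGF2BP3 narrowly. The relative IGF2BP2 stood at 20.6, 18.3 and 22.2 against 15.7, 17.7 and 13.9, a log2 difference of -0.35 that did not pass (limma adjusted p = 0.206). The averages of IGF2BP1 were 22.3 (E33), 13 (E40), 7.37 (E50) and 0.595 (E95), whereas IGF2BP3 averaged 8.82 at E50 and 8.95 at E70. IGF2BP1 was lost without E40 replicate 2, E40 replicate 3 or E50 replicate 1 (limma adjusted p from 0.0576 to 0.108), IGF2BP3 in each such fit but that without E50 replicate 2 (0.0737 to 0.18), and neither was called without both crowded libraries (0.0531 and 0.221).

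The catalytic writers and the erasers overlapped between stages. METTL3, the methyltransferase, stood at 9.84, 7.77 and 9.6 scaled TPM against 7.73, 10.4 and 7.52 (log2 change -0.08, SE 0.12, limma adjusted p = 0.803). METTL14, its partner, had a change of -0.04 (SE 0.11, limma adjusted p = 0.921). FTO stood at 4.36, 4.6 and 4.73 against 3.84, 4.63 and 3.83 (log2 change -0.13, SE 0.09, limma adjusted p = 0.546), and ALKBH5 at 11, 10 and 9.94 against 12.8, 9.63 and 9.93 (log2 change 0.05, SE 0.14, limma adjusted p = 0.917). Changes that miss the threshold do not show equal expression.

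Both IGF2BP genes also belong to the fetal programme linked to LIN28 and let-7, in which DLK1 moved the other way. Of 11 tested genes there 1 was called higher and 2 lower, where 1.03% of all genes were called higher and 0.584% lower. The median was 0.00. DLK1, an imprinted membrane protein of fetal muscle, stood at 209, 192 and 190 scaled TPM at E40 and 423, 310 and 361 at E50 (log2 change 0.87, SE 0.16, limma adjusted p = 0.0133). It was separate between stages, and its call ended without E40 replicate 3 (0.0509), E50 replicate 1 (0.0728) or both crowded libraries (0.116). LIN28A and LIN28B fell under the minimum level and were not tested. None of 12 tested IGF pathway genes was called, with a median of -0.06, and none of 9 acetylcholine receptor and junction genes, with a median of -0.05. Among 36 cell cycle genes only the spindle checkpoint kinase BUB1B was called, at 5.19, 5.41 and 5.17 against 3.82, 3.7 and 3.69. BUB1B fell by 0.40 (SE 0.09, limma adjusted p = 0.0499), was not called when any single library was left out (0.066 to 0.152) nor without both crowded libraries (0.285), and the median of the list was -0.16, beside 0.01 for all genes. None of 44 collagen and matrix genes was called, where 1.61% of all genes were, and their median was 0.00.

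**Figure D3:**
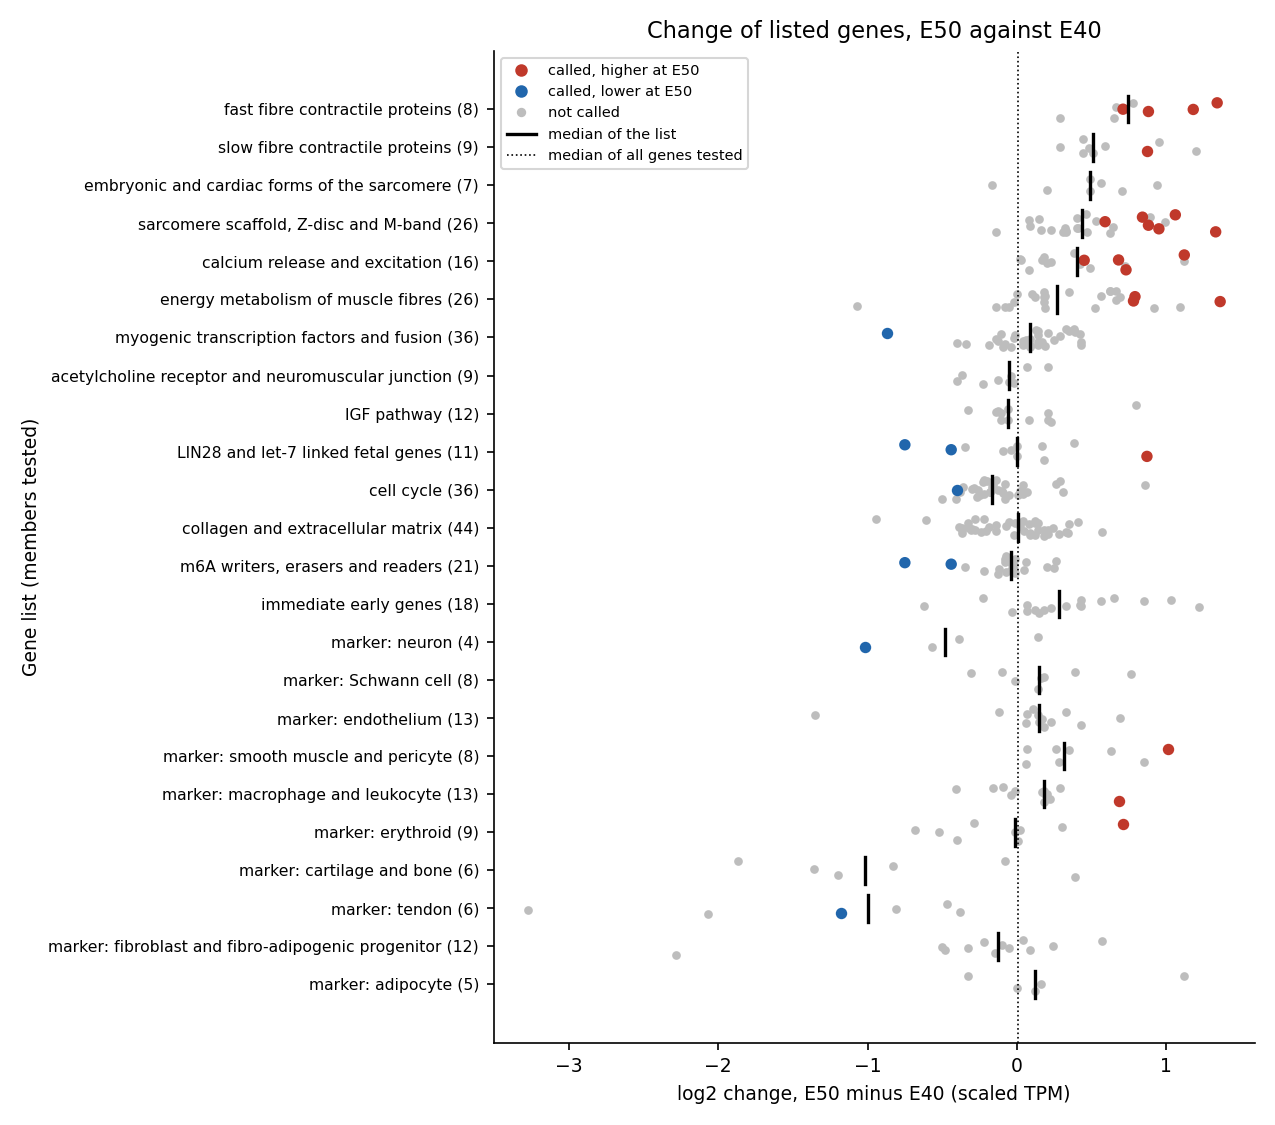
Change of each tested member of the gene lists (E50 minus E40, log2 of scaled TPM + 1), with called members in colour, the list's median as a bar and the median of all genes as a dotted line. The lists of contractile, scaffold and calcium genes have medians of 0.40 to 0.74, and those of tendon and of cartilage and bone markers have medians of -1.0 and -1.01.

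SLIT1 had the lowest adjusted p of all tested genes. SLIT1, a secreted repellent of growing axons, stood at 2.93, 3.26 and 3.11 scaled TPM at E40 and 0.855, 0.498 and 0.433 at E50, and fell by 1.37 on the log2 scale (SE 0.12, limma adjusted p = 0.000290). Its call held when any single library was left out and without both crowded libraries (limma adjusted p = 0.00207), but not with only the 6 libraries in the fit (0.109). SLIT1 averaged 3.84 at E33 and 0.516 at E60, so the step lay between E40 and E50. STMN2, a microtubule regulator of neurons, stood at 2.15, 3.43 and 3.95 against 0.944, 1.02 and 1.12 and fell by 1.02 (SE 0.15, limma adjusted p = 0.00483, or 0.0531 without both crowded libraries). Of 4 tested neuron markers STMN2 alone was called, where 1.61% of all genes were. The summed level of the matched list was 35.4 to 38.2 scaled TPM at E40 and 28.0 to 31.6 at E50. The part of nerve tissue in these falls was not tested.

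TLL1, a metalloprotease that processes collagen and growth factor inhibitors, stood at 3.73, 3.43 and 3.55 scaled TPM at E40 and 0.86, 1.7 and 0.846 at E50, and fell by 1.12 (SE 0.15, limma adjusted p = 0.00265). HPSE2, a heparanase relative, fell by 1.02, CPS1, the first enzyme of the urea cycle, by 1.01, FBXO24, an F-box protein, by 1.13 and ST6GAL2, a sialyltransferase with a peak at E50 only, by 1.03. All 5 were called when any single library was left out, and all but ST6GAL2 (0.0639) without both crowded libraries (limma adjusted p from 0.00866 to 0.0319). TBX1, a T-box factor, stood at 3.67, 5.88 and 2.25 against 0.653, 1.27 and 1.3 and fell by 1.20 (SE 0.26, limma adjusted p = 0.0368). The call of TBX1 was lost without E40 replicate 1, E40 replicate 2, E50 replicate 1 or E50 replicate 3 (0.0879 to 0.148). BCL11B, a zinc finger factor, stood at 3.07, 8.65 and 3.66 against 1.46, 2.06 and 1.67 and fell by 1.06 (SE 0.25, limma adjusted p = 0.046). The call of BCL11B was lost without E40 replicate 2, E40 replicate 3, E50 replicate 1 or E50 replicate 3 (0.0656 to 0.162). Neither was called without both crowded libraries (limma adjusted p = 0.203 and 0.17), where the log2 change of BCL11B was -0.67, or -0.68 without E40 replicate 2 alone. The high value of BCL11B in E40 replicate 2, a crowded library, stands apart from both other E40 libraries. RASL11B (a fall of 1.31) and RASGRP4 (a fall of 0.96) were not called without both crowded libraries (limma adjusted p = 0.261 for each), where the log2 change of RASL11B was -0.66, or -0.85 without E50 replicate 3 alone. RASL11B was called without E50 replicate 2 and in no other such fit (0.0712 to 0.146), and RASGRP4 was lost without E40 replicate 2, E40 replicate 3, E50 replicate 1 or E50 replicate 3 (0.051 to 0.123).

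WNT5A, a secreted ligand of limb and muscle patterning, stood at 5.15, 8.45 and 4.5 scaled TPM at E40 and 2.91, 2.23 and 2.88 at E50, and fell by 0.90 (SE 0.18, limma adjusted p = 0.0226). EFNA5, a membrane-bound ligand of Eph receptors, stood at 5.45, 6.6 and 6.84 against 3.65, 4.05 and 2.88 and fell by 0.69 (SE 0.13, limma adjusted p = 0.0178). The stages were separate for each, although E40 replicate 2 was the high library for WNT5A. WNT5A was lost without E40 replicate 2, E50 replicate 1 or E50 replicate 3 (limma adjusted p from 0.0586 to 0.0728), EFNA5 without E40 replicate 2, E40 replicate 3, E50 replicate 1 or E50 replicate 3 (0.0644 to 0.0879), and neither was called without both crowded libraries (0.115 and 0.202).

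Most markers of tendon and cartilage had negative changes that did not pass the test. Of 6 tendon markers, all had negative changes with a median of -1.0, and 1 was called, where 1.61% of all genes were. This marker, MKX, a homeobox factor of tendon, stood at 4.77, 5.96 and 6.36 scaled TPM at E40 and 1.25, 3.42 and 1.55 at E50 (a fall of 1.18, SE 0.27, limma adjusted p = 0.0412). MKX was called when E50 replicate 2 was left out and in no other such fit (0.0656 to 0.176), and not without both crowded libraries (0.293). TNMD, a membrane protein of tendon, stood at 29.1, 50.3 and 42.2 against 3.66, 18.7 and 8.72 (log2 change -2.07, SE 0.59, limma adjusted p = 0.103, or 0.04 without E50 replicate 2). SCX, the defining tendon factor, was listed at 15.1, 23 and 20.6 at E40 and at 0, 8.29 and 0 at E50. The summed tendon markers stood at 180 to 274 at E40 and 96.2 to 174 at E50. Of 6 tested cartilage and bone markers none was called, 5 had negative changes and the median was -1.01. The sum over all 16 matched markers, untested ones included, was 98.8 to 169 at E40 and 37.4 to 77.7 at E50. COL2A1, the collagen of cartilage, stood at 49.7, 89.7 and 74.2 against 10.2, 22.3 and 26.2 (log2 change -1.87, SE 0.58, limma adjusted p = 0.133). None of these sums overlapped between stages, and E50 replicate 2, the library nearest to E40, held the most of the tendon sum at E50. The part of attached tendon and cartilage in the falls was not tested.

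Other cell types differed less between stages. None of 13 endothelial markers (median 0.15), 8 Schwann cell markers (0.15), 12 fibroblast markers (-0.12) or 5 adipocyte markers (0.12) was called, where 1.61% of all genes were. Of 8 smooth muscle and pericyte markers (median 0.32) KCNJ8 was called higher (1.01, limma adjusted p = 0.0415), and of 13 leukocyte markers (median 0.18) CD74 (0.68, limma adjusted p = 0.0358). Of 9 erythroid markers (median -0.01) SPTB, a spectrin that muscle also expresses, was called higher (0.71, limma adjusted p = 0.0346). Each of those calls was made without E50 replicate 2 and in no other fit that left out 1 library (limma adjusted p from 0.0552 to 0.17), and none without both crowded libraries (0.173 to 0.292). Sums were taken over all matched markers, untested ones included. By these E40 replicate 2 stood apart for fibroblast markers, at 693 scaled TPM against 243 to 333 in the other libraries. It also stood apart for adipocyte markers (66.2 against 23.3 to 36.2) and for the untested epithelial markers (6.82 against 0.491 to 1.9). Immediate early genes, which respond to handling of tissue, had a median of 0.28 and 0 calls among 18 tested.

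Some called genes were listed at 0 in whole stages. TMEM238, a small membrane protein, was listed at 8.43, 29.6 and 15.7 scaled TPM at E40 and at 0 in all 3 E50 libraries (limma adjusted p = 0.000358), in each of the 6 fits that left out 1 library and without both crowded libraries (0.00579). At E33 and from E60 to E95 it was listed at 7.46 to 22.8 in each library, so E50 alone stood apart. KREMEN2, a co-receptor of Wnt inhibitors, was listed at 2.02, 7.81 and 1.22 at E40 and at 0 in all 3 E50 libraries (limma adjusted p = 0.013, or 0.0545 without E50 replicate 1). It stood at 8.54 to 8.66 at E33 and at or near 0 in each library after E50. In the other direction, MT1X was listed at 0 in all 3 E40 libraries and at 6.56, 7.37 and 27.2 at E50 (limma adjusted p = 0.0178), with the call lost without any 1 E40 library or without E50 replicate 3 (0.0581 to 0.0879). MT1X belongs to the metallothioneins, whose near-identical members can share reads. MPZL2 fell from 1.41, 2.89 and 1.28 to 0.545, 0.223 and 0.266, and TMEM71 from 1.46, 1.04 and 1.96 to 0.464, 0.257 and 0.204 (limma adjusted p = 0.0368 and 0.0467), and neither was called without both crowded libraries (0.263 and 0.108). MPZL2 was called without E40 replicate 3 and in no other such fit (0.0589 to 0.134), and TMEM71 was lost without E40 replicate 1, E40 replicate 3, E50 replicate 1 or E50 replicate 3 (0.073 to 0.143).

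The m6A peak list of E50 was longer than that of E40. The authors' lists held 4928 peaks in 3047 genes at E40 and 7058 peaks in 4151 genes at E50, with no replicate of either. Among the 11991 genes that averaged 1 TPM or more in both stages separately, 2807 had a peak in both lists, 1203 at E50 only, 162 at E40 only and 7819 in neither. Of the genes with an E40 peak 94.5% (Wilson 95% interval 93.7% to 95.3%) had one at E50, while 70.0% (68.6% to 71.4%) of the genes with an E50 peak had one at E40. These intervals cover counting error only. By position, 91.1% of E40 peaks and 61.4% of E50 peaks overlapped a peak of the other list by at least 1 base. Many genes counted as E50 only had a peak at neighbouring stages: 69.7% of the 1203 were on the list of E33 and 67.6% on that of E60, with 647 on both. Of the 162 genes with a peak at E40 only, 63.6% were on the list of E33 and 46.9% on that of E60. Whether replicates were pooled and how deep the immunoprecipitated libraries were is not given in the sources used here, and a longer list and more methylation cannot be told apart from these files.

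Expression level went with the chance of a listed peak at both stages. In genes of 1 to 5 TPM, 10.2% had a peak at E40 and 17.6% at E50. The shares were 31.0% and 41.5% at 5 to 20 TPM, 48.9% and 56.4% at 20 to 100 TPM, and 39.3% and 44.7% over 100 TPM. The E50 share was above the E40 share in each of these ranges. Genes with peaks in both lists had a median of 11.7 scaled TPM at E40, those at E50 only 6.84, those at E40 only 7.40 and those in neither 4.84.

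Genes of the 4 peak classes had similar median expression changes. The median log2 change was 0.03 for genes with a peak in both lists, 0.02 for E50 only, 0.04 for E40 only and 0.01 for neither, beside 0.02 over all 11991. As deposited these medians were -0.40, -0.36, -0.37 and -0.35, beside -0.37. Of the genes with a peak at E50 only 1.83% were called (19 higher and 3 lower), of those in both lists 1.89% (40 higher and 13 lower), of those at E40 only 1.85% (none higher and 3 lower) and of those in neither 1.23%, beside 1.45% of all. The split by direction among called genes rests on 22 and 3 genes for the classes on 1 list and is given as a description, with no test. It was not counted without both crowded libraries, where 35 of all 207 calls remained.

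**Figure D4:**
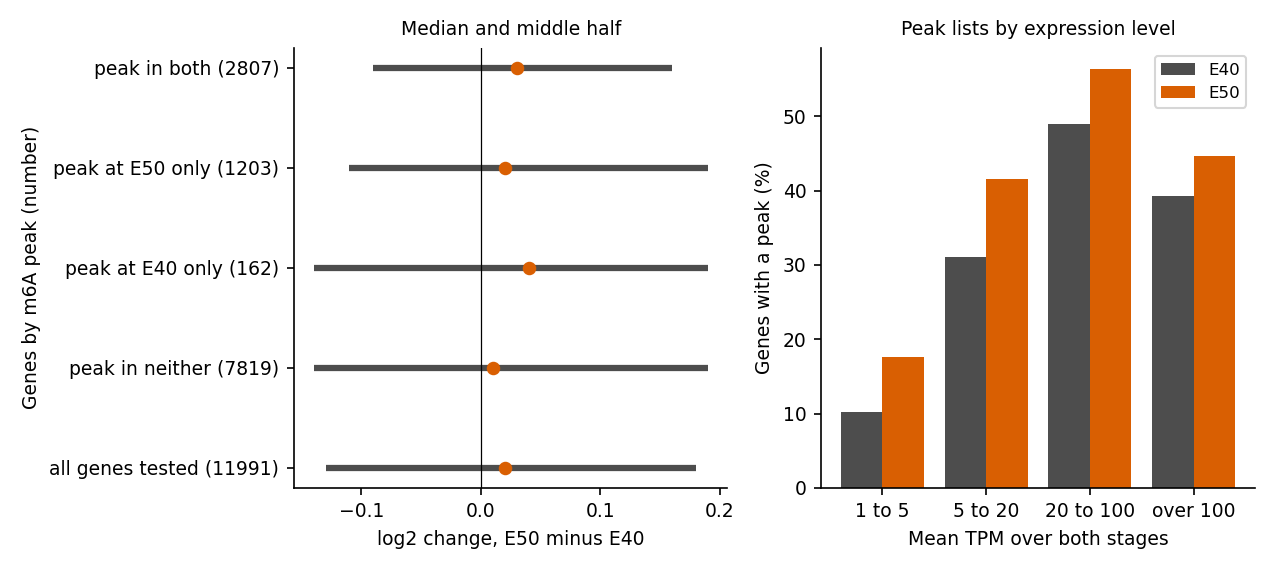
Left, median (point) and interquartile range (bar) of the log2 change (E50 minus E40) of genes by the list that holds their m6A peak, and right, the percentage of genes with a listed peak by mean TPM. The medians lie between 0.01 and 0.04 with broadly overlapping bars, and the E50 bar is higher than the E40 bar in each TPM range.

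E50 peaks without an overlapping E40 peak lay more often toward the 3′ end than those with one. On assembled chromosomes, 4259 E50 peaks overlapped an E40 peak and 2693 did not. Placed by midpoint in RefSeq coding transcripts, 13% (Wilson 95% interval 11.8% to 14.3%) of the peaks without overlap lay in the 3′ UTR, against 6.53% (5.82% to 7.31%) of those with overlap. Near the stop codon lay 20.6% (19.1% to 22.1%) against 17.2% (16.1% to 18.3%), and in the remaining coding sequence 53.7% (51.8% to 55.6%) against 67.6% (66.2% to 69.0%). Peaks without overlap were also shorter, with a median exonic length of 150 bases against 270, and had a lower median fold enrichment in the same list (4.62 against 5.03). The 429 E40 peaks without an E50 counterpart were shorter still, at a median of 91 bases, with 8.39% in the 3′ UTR. Peaks of 1 gene are not independent, so these intervals are narrower than the uncertainty over genes.

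**Figure D5:**
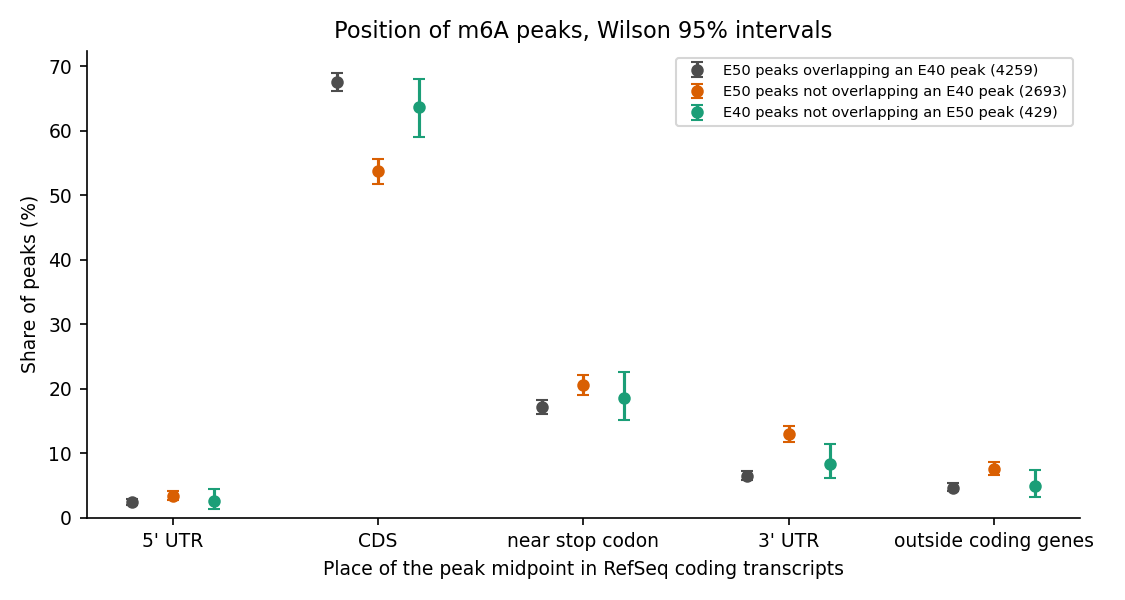
Share of peaks (percent, with Wilson 95% intervals as bars) by the place of the peak's midpoint in RefSeq coding transcripts, for E50 peaks with and without an overlapping E40 peak and for E40 peaks without an E50 counterpart. E50 peaks without overlap hold 13% in the 3′ UTR and 53.7% in coding sequence, against 6.53% and 67.6% for those with overlap.

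DRACH was common in peaks, as were its letters in reverse order, which serve as a comparison. On the transcript strand DRACH occurred in 98.1% of E50 peaks with overlap, 93.8% of those without and 86.5% of E40 peaks without a counterpart, in the order of their median lengths. The reversed letters occurred in 98.3%, 93.1% and 88.8%. Per kilobase, DRACH was denser within peaks than in the rest of the same transcripts by a ratio of 1.24 for E50 peaks with overlap, 1.36 for those without and 1.28 for E40 peaks without a counterpart. The reversed letters gave 1.20, 1.14 and 1.21. The form GGACT occurred at 2.0 per kilobase in E50 peaks without overlap and at 1.5 in those with overlap. The share of peaks that held it ran the other way, at 25.3% without overlap and 35.1% in the longer peaks with overlap. In E40 peaks without a counterpart these values were 1.58 per kilobase and 15.6%. GGACT was not compared with its reversed letters or with sequence outside peaks.

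The peaks with the highest fold enrichment in genes on 1 list alone were in genes whose expression change was not called. They are shown as the 3 highest at E50 and the third highest at E40, with the DRACH in capitals as before.
FBXL22: gacgctgcacgtGGACTtctgccgcaacg
STAM: ttcaatttgcacTGACTtttcagaggttc
NCKAP5: ccaacgagggatAAACActgtgacccggg
TOX: tgtctctatagcAAACAtggccgtgtccc
The first 3 are from the E50 list and TOX from the E40 list. FBXL22, an F-box protein of the Z-disc, had an E50 peak near the stop codon at chr1:108409021-108409199 (minus strand, 49.9-fold). STAM, an endosomal sorting adaptor, had one near the stop codon at chr10:44015003-44015242 (plus strand, 46.8-fold). NCKAP5 had one in coding sequence at chr15:19397958-19398168 (plus strand, 44.6-fold). TOX, a DNA-binding protein, had an E40 peak in coding sequence at chr4:74102779-74102869 (plus strand, 18.2-fold).

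None of those genes was called. STAM stood at 4.01, 4.1 and 4.61 scaled TPM at E40 and 4.67, 3.77 and 4.24 at E50, so its stages overlapped (log2 change -0.01, SE 0.14, limma adjusted p = 0.993). FBXL22 stood at 13.4, 9.65 and 11.9 against 18.5, 15.4 and 20 (log2 change 0.59, SE 0.19, limma adjusted p = 0.153). NCKAP5 and TOX had changes of 0.21 and 0.44 (limma adjusted p = 0.411 and 0.205). DEPP1, ZNF250 and C15orf39 had the other highest peaks of the genes at E40 only, at 25-fold, 17.9-fold and 21.6-fold, and none was called (limma adjusted p from 0.0632 to 0.915). When 1 library was left out, DEPP1 was called without E40 replicate 3 (0.0104) or E50 replicate 2 (0.0324), and C15orf39 without E50 replicate 2 (0.0352). DEPP1 was listed at 0, 0 and 6.1 at E40, where its peak was listed, and at 17, 5.35 and 21.9 at E50, where none was.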

How the data were processed

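TPM were computed by the authors and deposited for each input library, per the file headers. A fold enrichment (a ratio of immunoprecipitate to input) and a p-value per peak were given by the authors in 1 peak list per stage, per the file headers. Trimmomatic, HISAT2 and the genome build Sscrofa11.1 are named in the submitters' processing notes, while the program behind the TPM, the peak caller, its threshold and any pooling are not given in the sources used here. Each file sums to a fixed total, so sequencing depth is unknown and no counting interval was given for expression.

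Genes averaging 1 TPM or more in the 6 libraries were tested on log2(scaled TPM + 1) with limma 3.58.1 in R 4.3.3, with 1 mean per stage over all 18 muscle input libraries (12 residual degrees of freedom), a trended empirical Bayes step and two-sided contrasts. Scaling used the median ratio over 14215 genes above 0 in each of the 18 libraries. Calls required p under 0.05 after Benjamini-Hochberg adjustment across the 12839 genes. The same procedure was tested on simulated data. Alternatives changed the scaling, pseudocount, minimum level, libraries, weights and replicate block.

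The supplied table of Ensembl identifiers and gene names gave 10389 of the tested genes a symbol. Named genes had a symbol. With a call and stages that did not overlap, they were the 12 largest rises and falls above 0.1 TPM in all 6 libraries, the 4 largest on each side with a library at or under 0.1 TPM, and up to 6 members per list and per peak class. Whatever their call, 1 or 2 defining members of each list and the 4 genes with the highest peaks per class were added. The genes ENSSSCG00000032395, ENSSSCG00000032599, MYL2, MYL3, MYH6, MYL4, MYOG, MYOD1, FTO, ALKBH5, IGF2BP2, ATP2A1, TPM1, CASQ1, TIMP3, PDGFC and SLIT3 were added after their values were seen. Some genes that met the rule are not reported here. The members and lists were chosen with earlier results of these data known.

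Peaks were compared over their exon blocks with bedtools 2.31.1 (at least 1 base) and placed by midpoint in 19640 RefSeq coding genes using pysam 0.24.0. Of the junctions between blocks, 91.0% (E40) and 90.1% (E50) fell at RefSeq introns. Calculations used Python 3.11.15 and pandas 2.3.3.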

Additional observations from a re-analysis of the deposited data

How the results depend on the processing

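The 207 called genes became 1 in the TPM as deposited, 98 rescaled without the 2 most abundant genes, 14 with only the 6 libraries, 44 without E40 replicate 2 and E50 replicate 3, 464 with array weights, 110 at a minimum mean of 5 TPM, and 56 to 403 when 1 library was left out. Of the 207, 116 were tested at that minimum and 109 were called. Replicate numbers did not pair the libraries (correlation of deviations 0.02, -0.13 and -0.05 for replicates 1, 2 and 3), and with the replicate number as a block 120 genes were called, 116 of them among the 207. Quantile scaling (193), a pseudocount of 0.1 (165) and no filter (271) stayed within 1.5 times the count. In the TPM as deposited JPH1 reversed to -0.01 and lost its call, and 55 other named genes lost theirs with the same direction, as did 45 without both crowded libraries and 54 with only the 6 libraries. Counting peaks above the median fold of their list, 1421 genes had one in both lists and 391 at E40 only. At a fold of at least 5 these were 1172 and 266. At a minimum of 5 TPM in each stage 680 genes had a peak at E50 only and 93 at E40 only. Requiring overlap over at least 0.5 of the shorter peak gave 90.0% of E40 peaks. Median changes of genes by peak class shifted with all genes in the TPM as deposited (-0.40 in both, -0.36 at E50 only, -0.37 at E40 only, -0.37 over all). The cause of these differences was not tested. With 3 libraries a stage, 1 library decides many calls near the threshold.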
